A study of Mus musculus with 64 samples.

Results

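The serotonin receptor genes of mouse hippocampus are described here through 10 members, out of the 55414 genes in the table of the acute cohort and of the 55573 in that of the continuous cohort. They were found by matching the Ensembl IDs of the symbols Htr1a, Htr1b, Htr1d, Htr2a, Htr2c, Htr3a, Htr4, Htr5a, Htr6 and Htr7. The matching used no values, but the receptors were chosen with earlier results of these data known. The study asked whether loss of UBE3A, the ubiquitin ligase missing in Angelman syndrome (AS), alters the transcriptional response to corticosterone (CORT), the main glucocorticoid of mice. Wild-type (WT) males and AS males (Ube3a m-/p+, carrying an exon deletion on the maternal allele, on an F1 background of C57BL/6J and 129sv) were between 10 and 18 weeks old. In the acute cohort 24 mice received a subcutaneous injection of 3 mg/kg CORT or of vehicle (ethanol in PBS), and the left hippocampus was taken 3 h later from 6 mice of each genotype and treatment. In the continuous cohort mice carried a pellet with 20 mg CORT in cholesterol or a cholesterol pellet for 5 days. Libraries H9 and H13 of that cohort, which the study left out as technical outliers, were also left out here, so that 18 hippocampi remained: 4 WT vehicle, 5 WT CORT, 4 AS vehicle and 5 AS CORT. The deletion is in every cell, the paternal allele remains, and cells outside the neuronal lineage still use it.

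Serotonin reaches the hippocampus through fibres of the raphe nuclei and acts there on G protein-coupled receptors and on a ligand-gated channel. Receptors of the Htr1 and Htr5 families couple to Gi/o and lower cAMP, those of the Htr2 family couple to Gq and phospholipase C, and those encoded by Htr4, Htr6 and Htr7 couple to Gs and raise cAMP. Htr3a encodes a subunit of the cation channel. HTR1A is the classical inhibitory receptor of hippocampal pyramidal cells, and its regulation by corticosteroids has long been studied.

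The depth was even, with 19049461 to 21052967 reads counted on genes per acute library and 19112929 to 21783009 per hippocampal library of the continuous cohort. At that depth 3 counts, the floor used here, correspond to 0.138 to 0.158 CPM (counts scaled to a common library size by TMM), a limit that covers counting error only. Fkbp5, a glucocorticoid target, was at 48.6 to 70.8 CPM in acute vehicle and 103 to 128 CPM in acute CORT libraries, without overlap, and at 41.9 to 87.5 against 97.02 to 113 CPM in the continuous cohort. Ube3a counts, at 52.5 to 84.7 CPM in the acute cohort, sum over all exons and did not check the genotype labels. The summed markers of hippocampal neurons were at 12450 to 15930 CPM in the acute and 10420 to 12220 CPM in the continuous cohort. The 8 acute libraries H17 to H24 had 2640 to 2850 reads of low alignment quality, against 1877 to 2237 in the other 16. They comprise 2 AS vehicle and all 6 AS CORT libraries and no WT library, so in that cohort this division cannot be told apart from much of the AS CORT group.

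Of the 10 genes, 9 had enough reads to be tested in each cohort, and Htr1d was the exception. Per kilobase of exon, Htr1a was the most abundant receptor transcript, at 8.94 ± 1.29 CPM/kb (SD, n = 24 libraries) in the acute and 9.32 ± 1.43 CPM/kb (SD, n = 18) in the continuous cohort. On that scale it exceeded the next gene, Htr3a, in every library of both cohorts. Htr3a followed with 3.97 ± 0.766 CPM/kb in the acute and 4.66 ± 1.04 CPM/kb in the continuous cohort. The acute order then ran Htr6, Htr5a, Htr2a, Htr4, Htr1b, Htr7 and Htr2c, from 3.09 down to 1.68 CPM/kb, and the ranges of all neighbours from Htr3a to Htr2c overlapped. In the continuous cohort the order was Htr4, Htr7, Htr2c, Htr5a, Htr6, Htr2a and Htr1b, from 3.08 to 2.29 CPM/kb, again with overlapping neighbours. Htr2c depends on the length used: with the transcript length (4883 bases) in place of all exons (9328 bases) it rose to rank 3 in the acute and rank 2 in the continuous cohort, where Htr1a then exceeded it in 17 of 18 libraries. The 2 cohorts were normalized separately, so levels are compared within each.

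**Figure D1:**
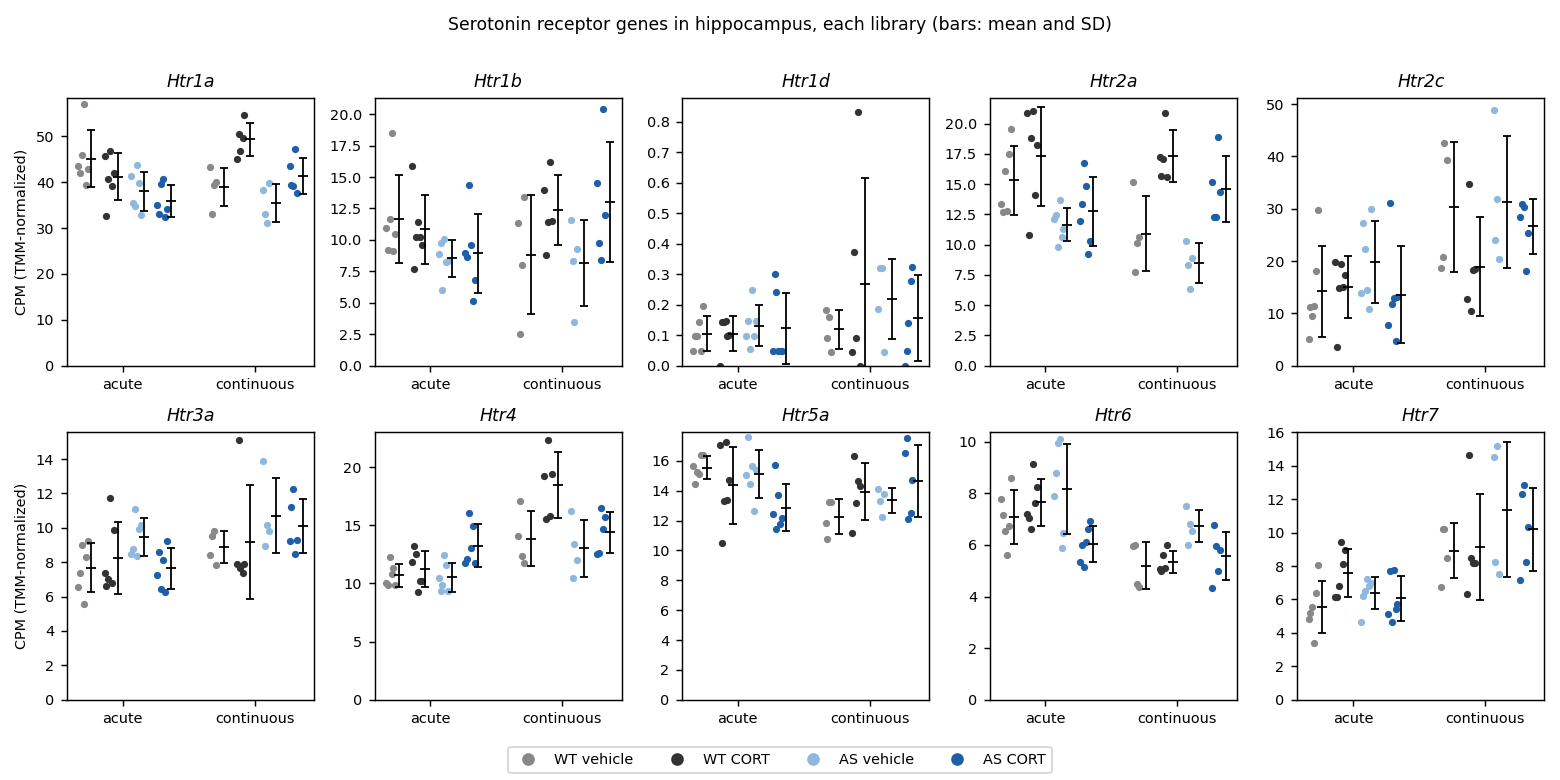
Level of each receptor gene (vertical axis, TMM-normalized CPM, starting at 0) in every hippocampal library, by cohort and group; points are libraries and bars give the mean and SD. Htr1a lies between 32.5 and 57.1 CPM in the acute cohort, Htr1d stays below 1 CPM, and Htr2c has the largest SD in CPM within groups.

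Among the Gi/o-coupled receptors, Htr1a (ENSMUSG00000021721, chromosome 13, 105443639 to 105448122, GRCm38) rose after continuous CORT. In WT mice the vehicle libraries were at 33.2, 39.5, 40.0 and 43.2 CPM and the CORT libraries at 45.1, 46.9, 49.6, 50.6 and 54.6 CPM. The 2 groups did not overlap. The log2 fold change was 0.34 (standard error 0.0886, edgeR quasi-likelihood test with Benjamini-Hochberg adjustment, adjusted p = 0.0417). In AS mice vehicle libraries were at 31.1, 33.0, 38.3 and 39.8 CPM and CORT libraries at 37.7, 39.2, 39.4, 43.6 and 47.3 CPM. These groups overlapped, and the change of 0.22 (standard error 0.0891) did not pass the test (edgeR adjusted p = 0.218). The difference between the genotypes' responses was -0.12, with a 95% interval from -0.38 to 0.14. Averaged over genotypes, Htr1a rose by 0.28 (standard error 0.0628, edgeR adjusted p = 0.00658). After a single injection it did not pass the test in either genotype, with changes of -0.13 in WT and -0.09 in AS mice.

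Htr1a was lower in AS than in WT hippocampus of the acute cohort. The mean was 45.2 ± 6.22 CPM in WT vehicle, 41.2 ± 5.15 in WT CORT, 38.1 ± 4.27 in AS vehicle and 35.9 ± 3.49 in AS CORT mice (SD, n = 6). Averaged over treatments the difference was -0.22 on the log2 scale (standard error 0.0654, edgeR adjusted p = 0.0237). With a term for the low-quality reads it was -0.16 (edgeR adjusted p = 0.718). In the continuous cohort the same difference was -0.19 (standard error 0.0626, edgeR adjusted p = 0.178). In the acute contrast 1 of the 8 CA1 pyramidal markers was called, Wfs1, at -0.66 (edgeR adjusted p = 0.00568). The summed CA1 markers ran from 1013 to 1953 CPM in WT vehicle (median 1238), 879 to 1391 in WT CORT (median 1142), 906 to 1185 in AS vehicle (median 1102) and 632 to 1359 CPM in AS CORT mice (median 928), with none of the 8 at 0. Markers of other lists were called in this contrast too and are given with Htr2a. The part of all of them in the Htr1a difference was not tested.

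Htr1b, the terminal autoreceptor and heteroreceptor, varied more between mice than between groups. Its highest acute value, 18.5 CPM, came from WT vehicle library H4, which also had the highest Htr1a (57.1 CPM) and the most reads on CA1 pyramidal markers (1953 CPM summed, against 632 to 1391 in the other 23). Its lowest continuous values, 2.54 and 3.44 CPM, came from WT vehicle library H4 and AS vehicle library H14 of that cohort, which had the fewest CA1 marker reads (328 and 392.1 CPM, against 693 to 1115 in the other 16). The mean log2 CPM of the 10 thalamus markers was highest in the same 2 libraries. It was 3.78 in H4 and 4.69 in H14, against 1.97 to 2.90 in the other 16. The part of CA1 or thalamic tissue in the result was not tested. No contrast of Htr1b passed. An antisense gene, D430036J16Rik, shares 852 exonic bases with it, and the sources used here do not state whether counting used strand, so the Htr1b counts may include its reads. Htr5a was at 10.5 to 17.6 CPM in the acute and 10.8 to 17.5 CPM in the continuous cohort and passed no test.

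Htr1d was near the floor in hippocampus. Its counts were 0 to 6 in the 24 acute libraries and 0 to 18 in the 18 continuous ones. The highest, 18 reads, was in WT CORT library H15, and no comparison was made.

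Among the Gq-coupled receptors, Htr2a (ENSMUSG00000034997, chromosome 14, 74640840 to 74709494, GRCm38) showed the largest called change. After continuous CORT in WT mice it went from 7.70, 10.2, 10.6 and 15.2 CPM with vehicle to 15.6, 15.7, 17.1, 17.2 and 20.9 CPM. In AS mice it went from 6.37, 8.29, 8.91 and 10.3 CPM to 12.2, 12.3, 14.4, 15.2 and 18.9 CPM. In both genotypes every CORT library lay above every vehicle library. The log2 fold changes were 0.67 in WT mice (standard error 0.171, edgeR adjusted p = 0.0390) and 0.79 in AS mice (standard error 0.175, edgeR adjusted p = 0.0132). The responses of the genotypes differed by 0.12 on the log2 scale, with a 95% interval from -0.39 to 0.63. Averaged over genotypes the change was 0.73 (standard error 0.122, edgeR adjusted p = 0.000637). In the acute cohort the CORT changes were 0.17 in WT and 0.13 in AS mice and did not pass.

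Markers of other cells moved in the same continuous CORT contrasts. Of the 6 astrocyte markers 3 fell and 1 rose in each genotype. Aqp4, the astrocyte water channel, fell by 0.85 in both, and Gfap by 0.69 in WT and 0.55 in AS mice. Their sum went from 1461 to 1657 CPM with vehicle to 1111 to 1295 CPM with CORT in WT mice, and from 1327 to 1455 to 1131 to 1334 CPM in AS mice. Of the 5 microglia markers 2 fell in each genotype, P2ry12 by 0.55 in WT and 0.56 in AS mice, with sums of 250 to 278 and 211 to 237 CPM in WT and 230 to 260 and 208 to 234 CPM in AS mice. Of the 8 tested choroid plexus markers 2 fell in WT mice, Ttr by 4.57 and Folr1 by 3.35, and 0 were called in AS mice. The sum of all 12 ran from 82.8 to 3014 CPM with vehicle and 40.5 to 137 CPM with CORT in WT mice, and from 92.6 to 346 and 52.0 to 536 CPM in AS mice. Neuronal and vascular markers moved too. Of the 10 CGE interneuron markers Lamp5 rose by 0.33 in WT and 0.44 in AS mice and Vip by 0.78 in AS mice, with sums of 700 to 843 CPM with vehicle and 658 to 802 CPM with CORT in WT and 692 to 836 and 653 to 702 CPM in AS mice. Of the 8 subiculum and cortex markers Lamp5 rose in both genotypes and Rorb fell by 0.56 in AS mice, with sums of 262 to 329 and 288 to 346 CPM in WT and 210 to 284 and 250 to 344 CPM in AS mice. Of the 5 endothelial markers Cldn5 fell by 0.50 in AS mice, with sums of 169 to 197 and 142 to 174 CPM in WT and 155 to 175 and 137 to 184 CPM in AS mice. Averaged over genotypes, the thalamus markers Tcf7l2, Zic1 and Lef1 changed by -2.11, -1.01 and -0.72, the CA1 marker Gpr161 by 0.75 and the dentate granule marker Plk5 by -0.71, each called. The 10 thalamus markers summed to 90.4 to 172 and 82.5 to 104 CPM in WT and 73.6 to 345 and 84.9 to 100.4 CPM in AS mice. The 8 CA1 markers summed to 328 to 933 and 693 to 958 CPM in WT and 392.1 to 923 and 717 to 1115 CPM in AS mice, and the 8 dentate markers to 534 to 886 and 460 to 818 CPM in WT and 317 to 770 and 380 to 541 CPM in AS mice. None of the genes in these lists was at 0 throughout, and their part in the changes of Htr1a and Htr2a was not tested.

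The 2 vehicle libraries with few CA1 marker reads and the highest mean of thalamus markers, H4 and H14, had the lowest Htr2a of their groups. Without both of them Htr2a still changed by 0.60 averaged over genotypes (edgeR adjusted p = 0.00160) and Htr1a by 0.22 (edgeR adjusted p = 0.0190). The changes in WT mice alone, 0.53 for Htr2a (edgeR adjusted p = 0.0664) and 0.27 for Htr1a (edgeR adjusted p = 0.0707), then did not pass. Htr4, which averaged over genotypes changed by 0.28 (edgeR adjusted p = 0.0808) with all 18 libraries, passed in that fit.

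Of the 9 tested receptors, 2 (Htr1a and Htr2a) rose in WT mice after continuous CORT, where 2.92% of all tested genes were called and 0.803% were higher. In AS mice 1 (Htr2a) rose, against 3.77% called and 2.03% higher. Averaged over genotypes Htr1a and Htr2a rose, against 9.67% called and 4.19% higher. The WT calls were close to the threshold: Htr1a and Htr2a each passed in 9 of the 18 fits that left out 1 library, both of them in 7, and neither without H4, H6 or H17 of WT vehicle, H12, H15 or H20 of WT CORT, or H11 of AS vehicle. The AS call of Htr2a was lost without AS vehicle library H14, and averaged over genotypes both genes passed in all 18. The median log2 change over the 9 was 0.18 in WT and 0.13 in AS mice, beside 0.00 over all genes tested in each. None differed between genotypes in that cohort, where 0.0134% of genes were called with vehicle, 0.0401% with CORT and 0.348% averaged over treatments, nor in the interaction, where 0% were. At an unadjusted p under 0.05 there were 1, 2, 4 and 0 receptors in those contrasts, where 7.34%, 10.2%, 12.9% and 3.75% of all genes were, and the DESeq2 Wald test called 0 in each.

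**Figure D2:**
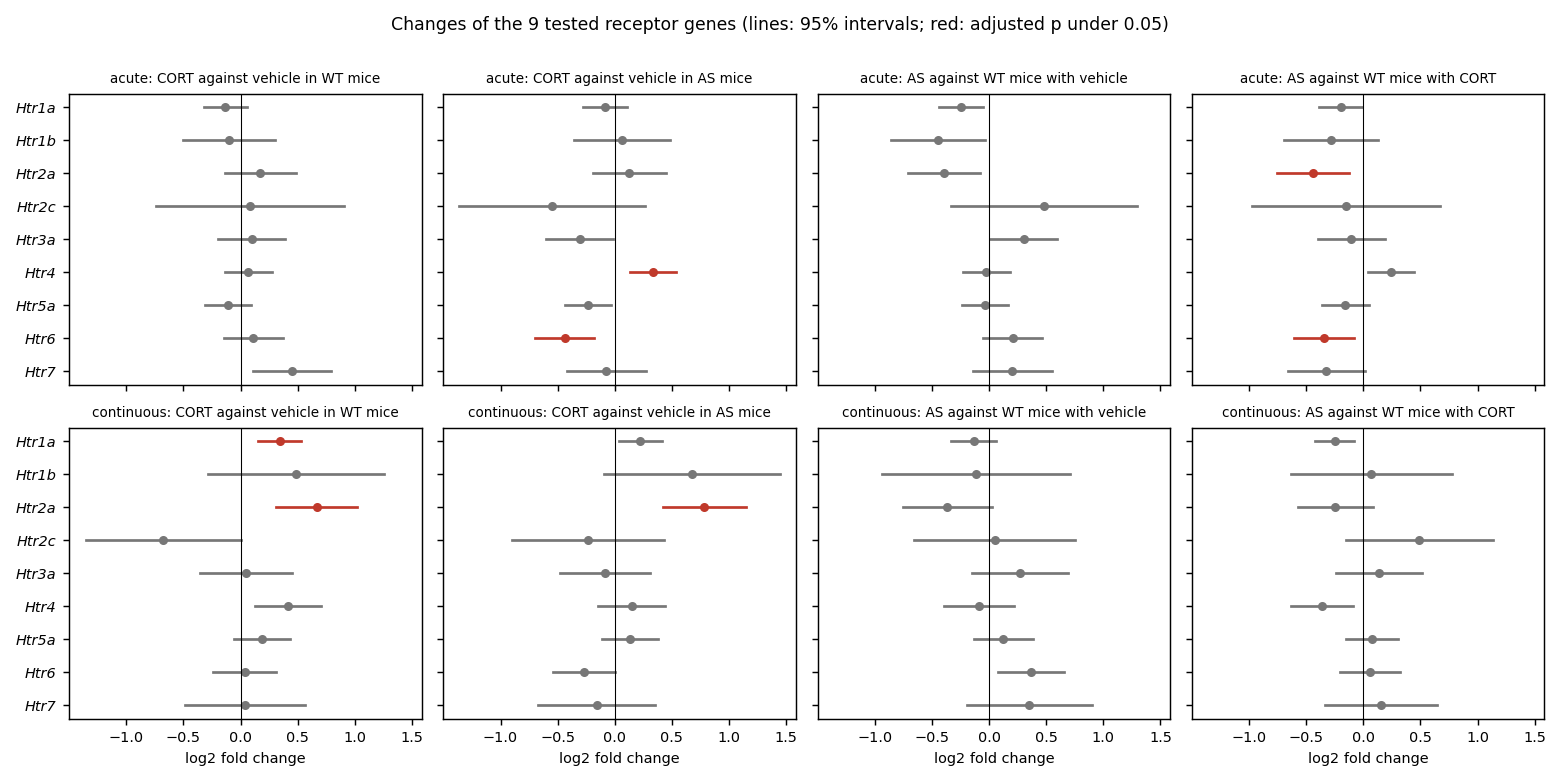
Log2 fold change of the 9 tested receptor genes (horizontal axis) with 95% intervals, for 4 contrasts in the acute (top) and continuous (bottom) cohort; red marks an edgeR adjusted p under 0.05. Htr2a lies at 0.67 and 0.79 for continuous CORT in WT and AS mice, and Htr6 at -0.44 for acute CORT in AS mice.

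The sequences at the starts of the 2 genes that rose together are shown because CORT acts through receptors that bind DNA. Upstream windows of 250 bases ending at the RefSeq transcription start were available for 8 of the 10 genes (10 windows, GRCm38.p6). They are at chr13:105443443-105443692 and chr14:74640624-74640873, both on the plus strand, with the hexamer TGTTCT in capitals where it occurs. The RefSeq starts lie downstream of the gene starts given above, so the last bases of both windows fall inside the genes as annotated there.
Htr1a: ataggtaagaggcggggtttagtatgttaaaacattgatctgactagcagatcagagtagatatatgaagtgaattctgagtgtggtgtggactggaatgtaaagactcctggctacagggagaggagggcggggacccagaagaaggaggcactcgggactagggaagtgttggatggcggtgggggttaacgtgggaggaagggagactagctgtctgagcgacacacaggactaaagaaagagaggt
Htr2a: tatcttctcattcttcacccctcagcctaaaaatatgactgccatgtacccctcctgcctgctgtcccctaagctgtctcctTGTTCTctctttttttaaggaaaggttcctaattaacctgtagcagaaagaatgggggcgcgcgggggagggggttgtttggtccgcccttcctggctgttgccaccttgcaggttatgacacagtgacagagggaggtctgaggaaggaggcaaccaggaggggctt
The search covered TGTTCT and its reverse complement AGAACA, on both strands, and the full glucocorticoid response element, which is AGAACA, any 3 bases and TGTTCT. The hexamer was in the Htr2a window, starting 168 bases before the transcription start, and in 1 of the 10 receptor windows. It was in 16.1% of the 32851 windows of all genes, and the full element in 0.00913%. None of the 10 receptor windows held the full element, which at that share was likely beforehand. The search says nothing of imperfect forms of the element inside the windows or of sites elsewhere.

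In the acute cohort Htr2a was lower in AS than in WT mice. WT libraries were at 12.7 to 19.6 CPM with vehicle (median 14.7) and 10.8 to 21.02 CPM with CORT (median 18.5). AS libraries were at 9.83 to 13.6 CPM with vehicle (median 11.7) and 9.20 to 16.8 CPM with CORT (median 12.7). The groups overlapped at both treatments. With CORT the difference was -0.44 (standard error 0.152, edgeR adjusted p = 0.0353), and averaged over treatments -0.42 (standard error 0.108, edgeR adjusted p = 0.0127). A term for the low-quality reads left -0.33 averaged over treatments (edgeR adjusted p = 0.636). The averaged difference in the continuous cohort was -0.30 (standard error 0.121, edgeR adjusted p = 0.287). Neuronal markers moved in the same acute contrast. Of the 10 CGE interneuron markers 1 was higher and 2 were lower, Lamp5 at -0.53 (edgeR adjusted p = 2.38e-06) and Cck at -0.26 (edgeR adjusted p = 0.00223), and of the 8 subiculum and cortex markers 1 was higher and 1, also Lamp5, lower. The summed CGE markers ran from 809 to 938 CPM in WT vehicle, 806 to 955 in WT CORT, 756 to 868 in AS vehicle and 805 to 869 CPM in AS CORT mice. The subiculum and cortex markers summed to 244 to 352, 294 to 371, 260 to 335 and 243 to 314 CPM in the same order. Wfs1 of the CA1 list was lower as given for Htr1a, and none of these markers was at 0 throughout.

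Other lists held called markers in that averaged contrast of AS against WT mice as well. Of the 4 tested choroid plexus markers 2 were lower, Ttr at -3.73 and Sostdc1 at -0.69, and all 12 summed to 31.8 to 1134 CPM in WT vehicle, 31.2 to 68.0 in WT CORT, 36.2 to 55.6 in AS vehicle and 32.6 to 51.9 CPM in AS CORT mice. Of the 5 blood markers Hbb-bt, a globin, was higher at 1.24, with sums of 51.2 to 147, 92.4 to 184, 84.3 to 190 and 54.0 to 149 CPM in the same order. Of the 7 striatum markers Rgs9 was higher at 0.47 and Drd2 lower at -0.34, with sums between 173 and 211 CPM in all 4 groups. A single marker was lower in each of 4 further lists: Slc32a1 of 8 interneuron genes (-0.22), Npy2r of 8 CA3 genes (-0.23), Lef1 of 9 tested thalamus genes (-0.36) and Ly6c1 of 5 endothelial genes (-0.19). The interneuron genes summed to 767 to 872, 674 to 913, 689 to 904 and 577 to 823 CPM in the same order, and the CA3 genes to 1092 to 1710, 1422 to 1749, 1301 to 1727 and 1137 to 1593 CPM. The thalamus genes summed to 88.3 to 99.4, 93.8 to 202, 81.8 to 103 and 88.4 to 113 CPM, with 1 of the 10 at 0 in every WT vehicle and 1 in every AS vehicle library, and the endothelial genes to 107 to 165, 128 to 175, 136 to 164 and 119 to 135 CPM. The dentate granule, myelin, astrocyte and microglia lists had 0 called. The part of these markers in the Htr2a difference was not tested.

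Htr2c, whose transcript is edited and which choroid plexus epithelium expresses strongly, varied most within groups. It ran from 3.57 to 31.1 CPM in the acute and from 10.4 to 48.9 CPM in the continuous cohort, and no contrast passed. The summed choroid plexus markers ran from 31.2 to 1134 CPM in the acute and from 40.5 to 3014 CPM in the continuous cohort. After removal of group means, Htr2c and the choroid plexus score had Pearson's r = 0.521 and Spearman's rho = 0.463 over 24 acute libraries (permutation p = 0.0115 and 0.031, adjusted over 6 relations 0.023 and 0.0464). Without the 2 libraries farthest from the median score, H6 and H3, r was 0.493 (permutation p = 0.032, adjusted 0.0567) and rho 0.424 (permutation p = 0.0626, adjusted 0.0751), so neither passed after adjustment. Within the libraries H1 to H16 r was 0.496 and rho 0.265 (permutation p = 0.0907 and 0.362), and within H17 to H24 they were 0.952 and 0.929 (permutation p = 0.00335 and 0.0124). In H17 to H24 the score, a mean log2 CPM, ran only from -1.41 to 0.0984, with summed markers at 32.6 to 51.9 CPM. The relation there thus rested largely on markers with few reads. Over the 18 continuous libraries r was 0.346 and rho 0.337 (permutation p = 0.21 and 0.235, adjusted 0.314 and 0.282), and r was -0.032 without H17 and H6. The genes whose pattern was most like Htr2c in both cohorts were Krt73, Pde1a and Fstl1, with r of at least 0.865 over 24 and over 18 libraries, as a description.

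Htr3a, the channel subunit, is a marker of interneurons from the caudal ganglionic eminence (CGE). It was at 5.59 to 11.7 CPM in the acute and 7.40 to 15.1 CPM in the continuous cohort and passed no test. Its correlation with the score of 10 CGE interneuron genes was r = 0.513 and rho = 0.579 in the acute cohort (permutation p = 0.0104 and 0.00436, adjusted 0.023 and 0.0131). In the continuous cohort r was 0.667 and rho 0.756 (permutation p = 0.00407 and 0.00022, adjusted 0.023 and 0.00132). Without the 2 libraries farthest from the median score r was 0.606 and 0.503 (permutation p = 0.00511 and 0.0523, adjusted 0.0237 and 0.0627), so the continuous r did not pass without H4 and H5, whereas rho was then 0.665 (permutation p = 0.00543, adjusted 0.0244). Within H1 to H16 r was 0.452 and rho 0.582 (permutation p = 0.0912 and 0.0263), within H17 to H24 they were 0.820 and 0.833 (permutation p = 0.027 and 0.0354), and without Cnr1 in the list the acute r was 0.383 (permutation p = 0.0565, adjusted 0.113) and rho 0.519 (permutation p = 0.00849, adjusted 0.0255).

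**Figure D3:**
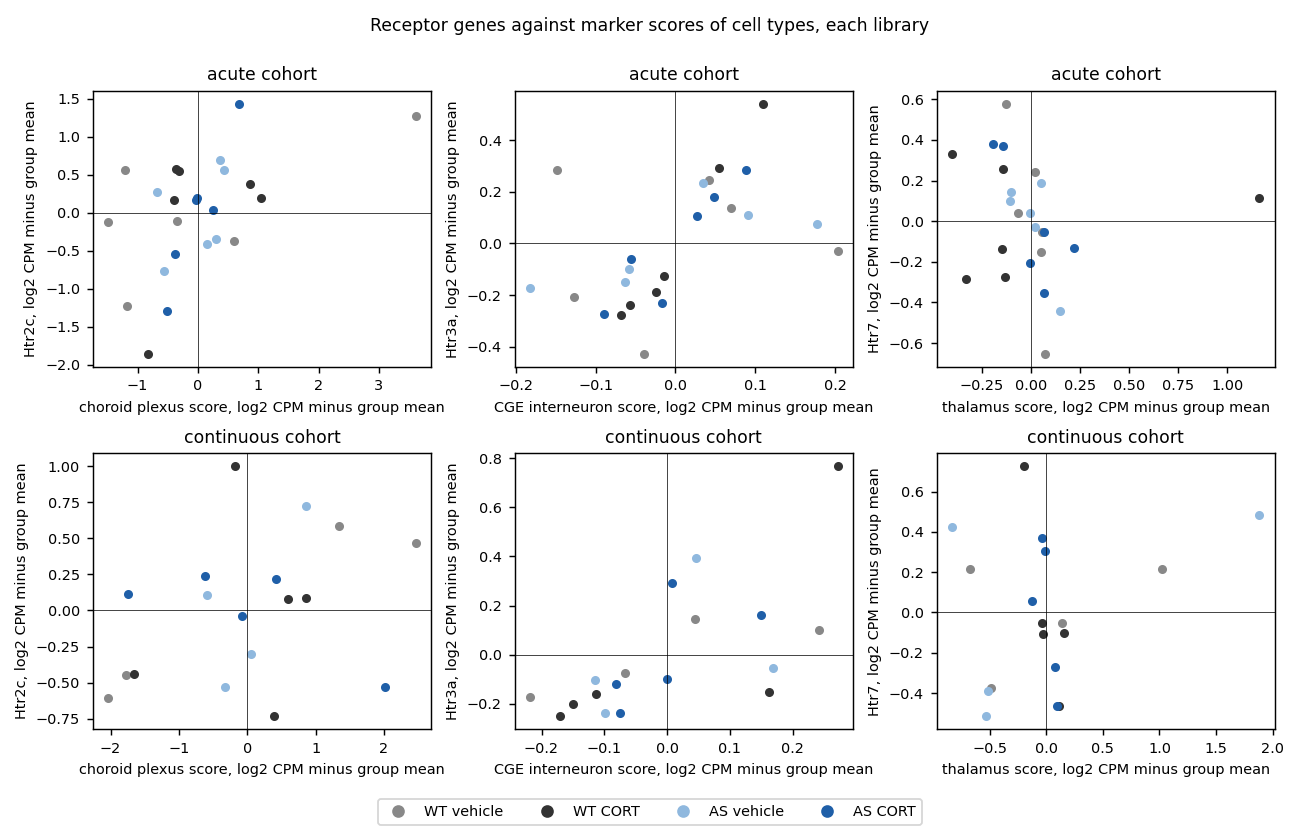
Receptor level against the mean log2 CPM of a marker list, both as log2 CPM minus the group mean, in each library of the acute (top) and continuous (bottom) cohort. Htr3a rises with the CGE interneuron score in both cohorts (r = 0.513 and 0.667), whereas Htr7 and the thalamus score have r = -0.145 and 0.249.

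Among the Gs-coupled receptors, Htr4 rose and Htr6 fell in AS mice after the injection. Htr4 went from a median of 10.2 CPM (9.35 to 12.5) with vehicle to 12.6 CPM (11.8 to 16.1) with CORT, with overlapping ranges. The log2 change was 0.33 (standard error 0.0984, edgeR adjusted p = 0.0208). In WT mice it was 0.07, and the difference between genotypes, 0.27, did not pass (edgeR adjusted p = 0.249). Htr6 went from a median of 8.34 CPM (5.87 to 10.1) with vehicle to 6.06 CPM (5.12 to 6.93) with CORT. Its change was -0.44 (standard error 0.126, edgeR adjusted p = 0.0185), against 0.11 in WT mice. The difference of these responses was -0.55 (standard error 0.178, edgeR adjusted p = 0.0679).

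The Htr6 values of AS vehicle mice divided with the low-quality reads. Libraries H13 to H16 were at 7.89, 8.79, 9.93 and 10.1 CPM, and H17 and H18 at 5.87 and 6.46 CPM, within the range of the AS CORT libraries. They were also within the range of the WT vehicle libraries, 5.59 to 8.605 CPM, which have fewer low-quality reads. Against H17 and H18 alone the CORT change of Htr6 was -0.04 (edgeR adjusted p = 0.989), and with a term for the division it was -0.03 (edgeR adjusted p = 0.986). For Htr4 the corresponding changes were 0.34 (edgeR adjusted p = 0.502) and 0.34 (edgeR adjusted p = 0.458), as large as with all libraries.

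**Figure D4:**
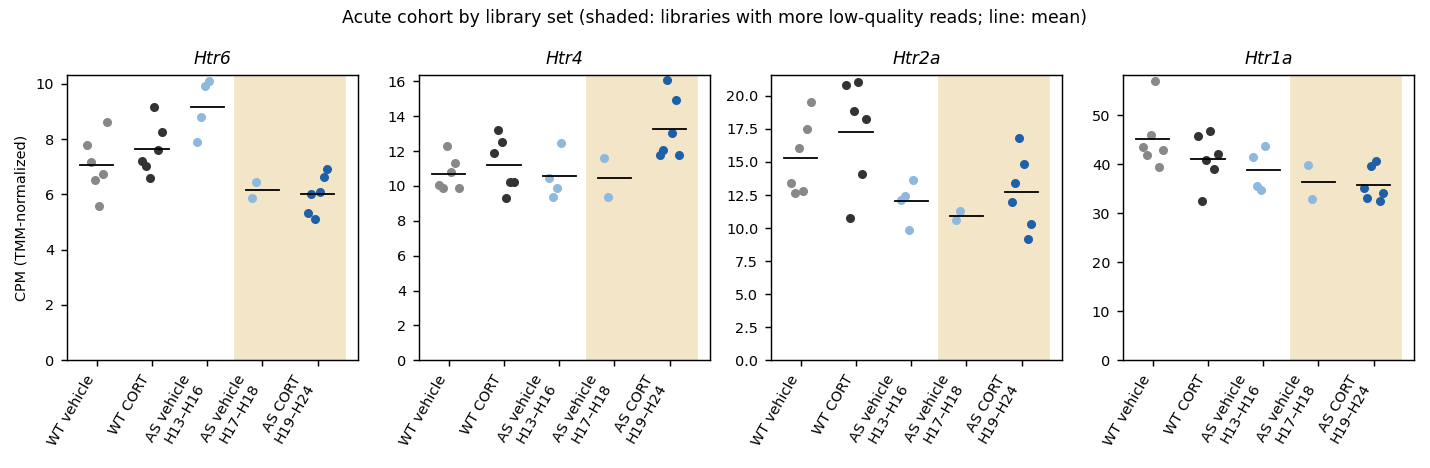
TMM-normalized CPM of Htr6, Htr4, Htr2a and Htr1a in each acute library, by group and, for AS vehicle, by library set; lines give means and the shaded sets have 2640 to 2850 reads of low alignment quality. AS vehicle libraries H17 and H18 (5.87 and 6.46 CPM of Htr6) lie below H13 to H16 and within the ranges of the AS CORT and WT vehicle libraries.

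Of the 9 tested receptors, 1 rose and 1 fell after the injection in AS mice, where 17.9% of all genes were called, 8.25% higher and 9.62% lower, and 0 were called in WT mice, where 1.48% were (1 at an unadjusted p under 0.05, Htr7, where 10.7% of genes were, and 0 by DESeq2). With CORT, 2 (Htr2a and Htr6) were lower in AS than in WT mice, against 24.9% of genes called in either direction and 13.2% lower. With the term for low-quality reads neither passed: Htr2a was at -0.30 and Htr6, with its direction turned, at 0.23 (edgeR adjusted p = 0.938 for each). Of the 24 fits that left out 1 library, the Htr2a call was kept in 17 and the Htr6 call in 9. With vehicle 0 were called, against 0.157% (4 at an unadjusted p under 0.05, where 9.54% of genes were, and 0 by DESeq2). In the interaction 0 were called, against 4.49% (2 unadjusted, where 23.6% of genes were, and 1, Htr6, by DESeq2), and in the CORT effect averaged over genotypes 0, against 7.02% (2 unadjusted, where 20.6% of genes were, and 0 by DESeq2). Averaged over treatments 2 (Htr1a and Htr2a) were lower in AS mice, against 14.2% called and 8.01% lower. WT CORT library H8 was the lowest of its group for 7 of the 9 tested receptors: Htr1a (32.6 CPM), Htr1b (7.72), Htr2a (10.8), Htr2c (3.57), Htr3a (6.61), Htr5a (10.5) and Htr7 (6.13). It was the highest for Htr4 (13.2 CPM). Without H8, 5 receptors differed between the genotypes with CORT in place of 2: Htr1a, Htr2a, Htr4, Htr5a and Htr6. Without any 1 of the other libraries that count ran from 0 to 2, and it was 0 without H7, H10 or H12 of WT CORT or H19 or H23 of AS CORT. The AS CORT call of Htr6 was lost without AS vehicle library H15 or H16, and that of Htr4 without AS vehicle library H14 or AS CORT library H21 or H23.

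In the continuous cohort Htr4 had 13.8 ± 2.37 CPM in WT vehicle (SD, n = 4) and 18.5 ± 2.83 in WT CORT mice (SD, n = 5), a change of 0.42 that did not pass (edgeR adjusted p = 0.124). In AS mice Htr6 was at 6.72 ± 0.625 CPM on the vehicle pellet (SD, n = 4) and 5.56 ± 0.935 CPM on the CORT pellet (SD, n = 5), a change of -0.27 (edgeR adjusted p = 0.325). Htr7 was at 3.38 to 9.44 CPM in the acute and 6.35 to 15.2 CPM in the continuous cohort. Its largest acute CORT change, 0.45 in WT mice (standard error 0.166), had an edgeR adjusted p of 0.272. The response of AS mice minus that of WT mice was -0.52 (standard error 0.235, edgeR adjusted p = 0.175). Htr7 and the thalamus score gave r = -0.145 and rho = -0.438 in the acute cohort (permutation p = 0.606 and 0.0293, adjusted 0.616 and 0.0464) and r = 0.249 and rho = 0.026 in the continuous one (permutation p = 0.616 and 0.949, adjusted 0.616 and 0.949). Without the 2 farthest libraries r was -0.569 and -0.501 (permutation p = 0.0079 and 0.0378, adjusted 0.0237 and 0.0567). Within H1 to H16 r was -0.038 and rho -0.285 (permutation p = 0.953 and 0.25), and within H17 to H24 they were -0.779 and -0.690 (permutation p = 0.0728 and 0.147). Genes most like Htr7 were Necab2, Adamts14 and Nrip3, with r of at least 0.840 in each cohort, and the gene most like Htr1a was Sstr4, a somatostatin receptor (r = 0.783 and 0.858). In bulk tissue, fewer cells of a type and less RNA per cell cannot be told apart.

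The other genes of the pathway comprised 81 genes in 8 lists, of which 73 were tested in the acute and 74 in the continuous cohort. After continuous CORT 1 rose and 4 fell in WT mice, 6.76% of those tested against 2.92% of all genes. In AS mice 3 rose and 0 fell, 4.05% against 3.77% of all genes, a share near the background. Maoa, the monoamine oxidase that degrades serotonin, fell in WT mice by 0.34 on the log2 scale (edgeR adjusted p = 0.00198), and Maob fell by 0.28 (edgeR adjusted p = 0.0416). Gnai2, a Gi subunit, fell by 0.30 (edgeR adjusted p = 0.000902). Ddc, the decarboxylase of serotonin and dopamine synthesis, rose by 1.03 in AS mice (edgeR adjusted p = 0.0264). Adcy9, an adenylyl cyclase, rose by 0.25 in WT and 0.38 in AS mice (edgeR adjusted p = 0.0430 and 0.00186).

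After the injection 2 pathway genes rose and 1 fell in WT mice, 4.11% of those tested against 1.48% of all genes. In AS mice 5 rose and 8 fell, 17.8% against 17.9% of all genes, a share at the background. Rgs20, a regulator of Gi signalling, fell by 0.39 in WT and 0.30 in AS mice (edgeR adjusted p = 0.00285 and 0.00824). Rapgef3, the cAMP sensor EPAC1, rose by 0.39 and 0.25 (edgeR adjusted p = 0.000984 and 0.0126). In the interaction 4 pathway genes were called, 5.48% against 4.49% of all genes, again near the background. For these 4, Gnai2, Pde4a, Prkaca and Prkar1b, the response of AS mice minus that of WT mice was -0.39 to -0.31 on the log2 scale. All AS CORT libraries lie in the set H17 to H24 with more low-quality reads, so the set and the AS response to CORT cannot be fully told apart. Of the other receptor genes, Htr5b was at 4.96 to 12.9 CPM and Htr1f at 1.35 to 3.72 CPM in the acute cohort, and Htr2b and Htr3b were at or under the floor there. The serotonin transporter gene Slc6a4, made in raphe neurons, was at 0 to 0.150 CPM in that cohort.

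The left-out libraries H9 and H13 stood apart in these genes. H13 had 300 reads of Htr1d, against 0 to 18 in the other 18, and 3563 of Htr2c, against 225 to 1056. Its summed striatum markers were at 3983 CPM, against 138 to 367, and its choroid plexus markers at 13300 CPM, against 41.0 to 3023. H9 had 683 reads of Htr7, against 137 to 331, with thalamus markers at 2639 CPM, against 74.2 to 347. Their Htr1a was at 7.504 and 5.791 CPM, against 31.3 to 55.3. With both included, Htr2a changed by 0.45 in WT mice (edgeR adjusted p = 0.321) and Htr1a by 0.61 (edgeR adjusted p = 0.447).

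In liver of the same mice Htr1d was the 1 receptor gene that passed the filter on low counts, and it was looked at after its values were seen. WT vehicle livers had 21, 33, 34, 47 and 51 reads and WT CORT livers 0, 2, 3, 3 and 4. AS vehicle livers had 39, 40, 41, 43 and 56 reads and AS CORT livers 0, 1, 3, 3 and 4. Every CORT liver lay below every vehicle liver in both genotypes. The gene passed the filter on low counts through the vehicle livers, so no test of it is given. As background, 9.9% of the 12273 tested genes were lower with CORT in WT livers and 15% in AS livers. The other 9 receptor genes had 0 to 4 reads in each liver.

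**Figure D5:**
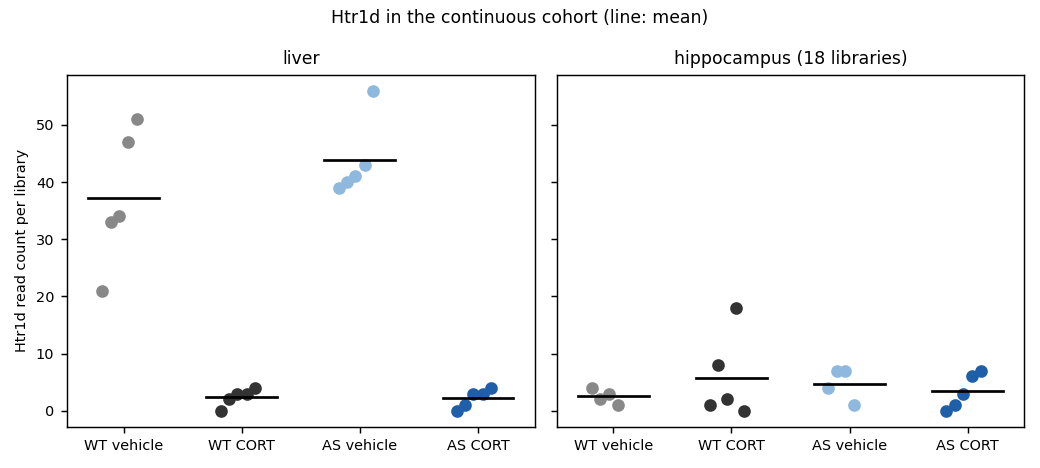
Read count of Htr1d per library (vertical axis, not normalized) in liver and in the 18 hippocampi of the continuous cohort; points are libraries and lines are means. Vehicle livers have 21 to 56 reads and CORT livers 0 to 4.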

How the data were processed

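Stranded mRNA libraries were sequenced by the authors in 100-base pairs, aligned with STAR to mm10 and counted per gene with HTSeq; the deposited values are raw read counts, not normalized, and whether counting used strand is not given in the sources used here. Reads on no gene (11.7% to 15.9% in hippocampus) were left out. Genes above 20 normalized counts in 3 replicates of a group were tested (14611 acute, 14949 continuous) with the edgeR 4.0.16 quasi-likelihood F test in R 4.3.3, with TMM normalization, the 4 groups of a cohort in 1 fit, and Benjamini-Hochberg adjustment over all tested genes at 0.05. Log2 values of CPM had 2 counts added beforehand. DESeq2 1.42.0 was an alternative. Library sizes were first taken over all genes and then over the tested genes. This was changed after both sets of results had been seen, to follow an earlier processing of these data; both gave the same receptor calls.

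Replicate numbers follow the order of the samples and pair nothing. Groups are from the labels, which do not say that mice shared a litter, and each library is 1 mouse. All 92 pairs of replicates differed beyond sampling noise (chi-square per gene 4.64 to 42.4). Relations to marker scores used 100000 two-sided permutations within groups. Gene positions and lengths are from GENCODE M21. On simulated counts with 14611 genes (acute AS mice, CORT against vehicle) 99% of genes changed by 1 on the log2 scale and 87% of those changed by 0.5 were recovered, and with 14949 genes (continuous) 98% and 65%. Only genes above a mean count were changed, and all simulated libraries shared the same mean levels otherwise. The rates therefore do not cover a division like that of H17 to H24 or shared differences in tissue between mice. The receptors and the gene lists were chosen with earlier results of these data known. All 10 receptors are named. From each other list at most the 3 called genes with the smallest adjusted p per contrast are named. The genes most like a receptor are those with the highest lower correlation of the 2 cohorts. The alternatives were other tests, size factors, filters, thresholds, GC and length trends, library sets and each library left out.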

Additional observations from a re-analysis of the deposited data

Results flagged for a closer look

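Of 72 groups of a tested receptor, 6 held a library far from the others by Dixon's criterion, which chance alone meets in about 1 in 20 groups. They were Htr1a and Htr1b in acute WT vehicle library H4 (57.1 CPM, others 39.5 to 46.0, and 18.5 CPM, others 9.14 to 11.6), Htr2c in acute WT CORT library H8 (3.57 CPM, others 14.9 to 19.8) and in acute AS CORT library H20 (31.1 CPM, others 4.62 to 13.1). In continuous WT CORT library H5, Htr3a was at 15.1 CPM (others 7.40 to 7.92) and Htr7 at 14.6 CPM (others 6.35 to 8.49).

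Outside the hippocampal comparisons, Htr1d had 405 reads in all over the 10 vehicle livers, 21 to 56 each, above the limit of 3 counts, and 23 over the 10 CORT livers. The left-out hippocampal library H13 had 300 reads of Htr1d, against 0 to 18 in the others, and the left-out library H9 had 683 reads of Htr7, against 137 to 331.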

How the results depend on the processing

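Each result was refitted with DESeq2, DESeq2 size factors in edgeR, no filter on low counts, only the 2 groups compared, trends on GC content and length removed, an adjusted p under 0.01, a term for the low-quality reads, 1 or the other set of AS vehicle libraries, all 20 continuous hippocampi, and each library left out. Added after the data were seen were library sizes over all genes, which left all receptor calls as they were, H4 and H14 left out together, and relations within the library sets. In the acute cohort the receptors called for CORT in AS mice (2) went to 0 at 0.01, with the term for low-quality reads and against H17 and H18 alone, and were 1 to 3 with each library left out. For AS against WT mice with CORT (2) they were 1 without the filter, with only the 2 groups and with the GC and length trends, 0 at 0.01 and with the term, where Htr6 turned to 0.23, and 0 to 5 with each library left out. The interaction (0) gave 1 by DESeq2 and against H13 to H16 alone, and 0 to 1 with each library left out. CORT averaged over genotypes (0) gave 1 against H13 to H16 alone and 0 to 1 with each library left out. The genotype effect averaged over treatments (2) gave 0 at 0.01 and with the term, 1 with H13 to H16 alone, and 2 to 3 with each library left out. In the continuous cohort CORT in WT mice (2) gave 0 with only the 2 groups, at 0.01 and with all 20 libraries, 1 (Htr4, neither of the 2) without H4 and H14, and 0 to 2 with each library left out. CORT in AS mice (1) gave 0 at 0.01 and 0 to 1 with each library left out. Averaged over genotypes (2) it gave 1 with all 20 libraries, 3 by DESeq2 and without H4 and H14, and 2 to 3 with each library left out. Of the relations to marker scores, Htr2c and choroid plexus (acute r = 0.521) gave 0.493 without the 2 farthest libraries and 0.496 within H1 to H16, where rho (0.463) was 0.424 and 0.265, and r turned from 0.346 to -0.032 in the continuous cohort. Htr3a and CGE interneurons gave 0.383 without Cnr1 and 0.452 within H1 to H16 in the acute cohort, and 0.503 without the 2 farthest libraries in the continuous one. Htr7 and thalamus gave -0.569 in the acute cohort and turned from 0.249 to -0.501 in the continuous one without the 2 farthest libraries. The cause of these changes was not tested. No paired analysis was possible because the replicate numbers are only an order of samples and the labels name no shared litter, batch or day. At this depth Htr1d could not be tested in hippocampus.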

Other observations

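The genes whose pattern over libraries was most like the other receptors, with r in the acute and continuous cohorts after group means were removed, were Map4 for Htr1b (0.935 and 0.904), Drp2 for Htr2a (0.753 and 0.753), Npffr1 for Htr3a (0.818 and 0.843), Jag1 for Htr4 (0.688 and 0.715), Tmem178b for Htr5a (0.859 and 0.784) and Fam189b for Htr6 (0.800 and 0.705). These are the highest among 14419 genes and are given as a description.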
